A study of Mus musculus with 24 samples.

Results

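The 34 genes described here are immediate early and activity-induced genes, switched on by electrical activity or growth signals in neurons and other cells. They were taken by symbol from the 55401 gene IDs measured in the mouse nucleus accumbens, and all 34 were found and passed the filter on low counts. Of them, 26 were placed among the rapid primary response genes and 8 among the slower or sustained ones (Fosl2, Jund, Nr4a2, Homer1, Nptx2, Dusp4, Dusp6 and Gadd45g) from general knowledge of the genes. The libraries are single end points with no time course, so the speed of each gene's response was not measured. The placing is approximate and open to dispute. Nr4a2 was set apart from its relatives Nr4a1 and Nr4a3, and Gadd45g from Gadd45b, so every count by class depends on this choice.

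The nucleus accumbens, a ventral striatal region made mainly of GABAergic projection neurons, was punched on both sides of the brain. The mice were C57BL/6J or DBA/2J, aged 8 to 9 weeks, and the sources used here give neither the strain nor the sex behind a library. Surgery was either sham or spared nerve injury (SNI, tibial variant) on the left sciatic nerve, which leaves the animal with long-lasting pain behaviour. All mice received AAV8 in the accumbens, driven by the neuronal hSyn promoter, carrying Egfp alone (Gfp groups) or Mef2c with Egfp (Mef2c groups), so no group lacked the virus. There were 6 libraries in each of the groups Sham Gfp, SNI Gfp, Sham Mef2c and SNI Mef2c, 24 in all. Nothing ties a library to a mouse or strain, so the p-values rest on the spread from library to library, which may be partly technical. The index in the labels runs by group, and an order of preparation that followed it cannot be told apart from the groups.

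In neurons, calcium entry and kinase cascades act on transcription factors already present, CREB, SRF with its partners and MEF2 among them, and the rapid genes are transcribed without new protein synthesis. Many encode transcription factors (FOS, EGR and NR4A families, NPAS4) that drive a later wave of genes. Others act directly at the synapse (ARC, HOMER1, NPTX2) or switch the cascade off again, as the DUSP phosphatases do. In the striatum FOS and ARC are widely used as marks of recently active neurons.

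Libraries held 25477019 to 36570108 counts. Levels are given as CPM (counts scaled to the library total with TMM factors), and tests are edgeR quasi-likelihood fits over 23738 genes with Benjamini-Hochberg adjusted p, called below 0.05. Striatal markers were high in every group, with Drd1 at 173 to 226 CPM and Ppp1r1b at 460 to 609 CPM (group means). Slc17a7, the vesicular glutamate transporter of cortical neurons, ran from 1.60 CPM in SNI Gfp library 1 to 1167 CPM in SNI Mef2c library 1. The punches thus differed in their cortical RNA, but not every cortical marker ran alike. Fezf2 was at most 4.07 CPM in SNI Mef2c and reached 16.4 CPM in SNI Gfp. In bulk RNA, more cells of a type and more RNA per cell cannot be told apart. Mef2c itself was 169.5 ± 25.4 CPM in Sham Gfp and 168 ± 39.7 CPM in SNI Gfp (SD, n = 6). It was 609 ± 144 CPM in SNI Mef2c, where the lowest library stood at 473 CPM. In the libraries labelled Sham Mef2c it was 242 ± 127 CPM, and libraries 2 and 5 of that group, at 124 and 123 CPM, lay below every Sham Gfp library. Library 4 of that group, at 210.9 CPM, lay below the highest Sham Gfp library, at 213.0 CPM. Between Sham Mef2c and Sham Gfp, Mef2c itself was not called by edgeR. Any difference between the libraries labelled Sham Mef2c and another group therefore rests partly on libraries without a raised Mef2c level.

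Among the 34 genes, levels per kilobase of exon spanned a wide range. Counts may have covered introns too, in which case genes with long introns stand too high on this scale, so the ranking is rough. Atf3 spans 47744 bases with 2154 in exons, whereas Jund spans 1668 bases, all in exons. Jund, a JUN family subunit of the AP-1 transcription factor, was the highest at 60.2 CPM per kb, averaged over 24 libraries. It was followed by the zinc-finger factor Egr1 at 23.7, Junb at 22.1 and Egr3 at 20.3 CPM per kb. Arc stood at 14.1, Npas4 at 6.02 and Fos at 4.22 CPM per kb. The lowest were the stress-induced factor Atf3 at 0.820, Egr2 at 0.734 and the small MAF protein Maff at 0.665 CPM per kb. Junb overlaps Prdx2 and Dusp1 overlaps Ergic1. Reads may have been counted over whole gene spans, and no source states that strand was used. The levels of Junb and Dusp1 may therefore include reads of their neighbours.

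The genes also differed in how far they varied from library to library. The ratio of the highest to the lowest of the 24 libraries was 31.4 for Nr4a2, 18.7 for Egr2, 15.6 for Atf3, 10.98 for Fos, 7.22 for Npas4 and 6.88 for Arc. It was 1.30 for Jund, 1.92 for Sik1, a salt-inducible kinase, and 1.96 for Dusp1. A few libraries stood at the extreme of their group for most members. SNI Gfp library 4 was the highest of its group for 27 of 34 genes and Sham Gfp library 5 for 24, whereas SNI Gfp library 1 was the lowest for 24 and Sham Gfp library 3 for 22. The same shares over all genes were not computed, so these counts do not show a trait particular to the members.

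**Figure D1:**
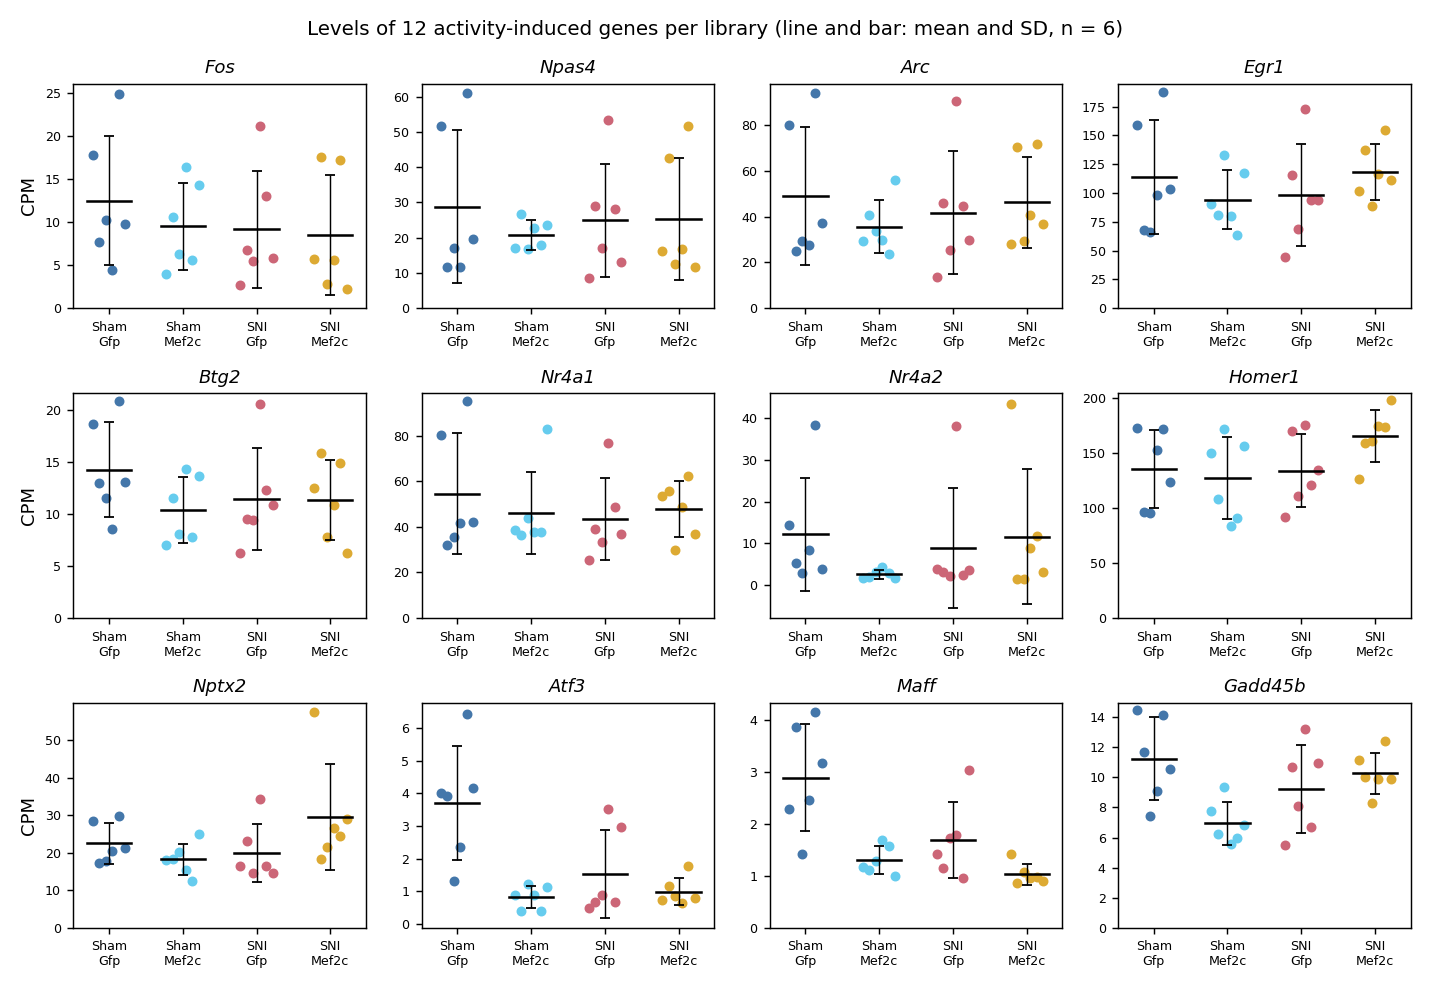
CPM of 12 members (vertical axis of each panel) in the 4 groups. Points are libraries, the line is the group mean and the bar is the SD (n = 6). Fos has 2 libraries above 13 CPM in every group and Npas4 is narrowest in Sham Mef2c, at 16.7 to 26.7 CPM, whereas Atf3 is at or below 1.22 CPM in all Sham Mef2c libraries and at or above 1.33 CPM in all Sham Gfp libraries.

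Fos, the founding immediate early gene, varied widely within each group. Fos lay between 4.48 and 24.9 CPM in Sham Gfp (median 10.0) and between 3.91 and 16.4 CPM in Sham Mef2c (median 8.45). It lay between 2.70 and 21.2 CPM in SNI Gfp (median 6.33) and between 2.27 and 17.5 CPM in SNI Mef2c (median 5.65). The ranges overlapped throughout, and each group held 2 libraries above 13 CPM: Sham Gfp 1 and 5, Sham Mef2c 4 and 6, SNI Gfp 4 and 5, and SNI Mef2c 2 and 5.

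To find which members varied with Fos, the log2 CPM of Fos was added to the fit as a slope common to the groups, so that group means were removed. The slope is the log2 change of a gene per doubling of Fos. Of the other 33 members 7 followed Fos, all upwards, against 0.0379% of the 23737 genes tested (9 genes). An unadjusted p under 0.05 was found for 16 of the 33, against 1.87% of all genes. Btg2, an antiproliferative cofactor, had the smallest p, with a slope of 0.48 (SE 0.034, edgeR adjusted p = 3.39e-08). Npas4, a factor induced by calcium in neurons, had the steepest called slope at 0.77 (SE 0.081, adjusted p = 3.62e-05). The others were Egr2 at 0.69 (SE 0.12, adjusted p = 0.0204), Arc at 0.60 (SE 0.085, adjusted p = 0.00401) and the orphan nuclear receptor Nr4a1 at 0.41 (SE 0.072, adjusted p = 0.0297). The list was completed by Gadd45g, a growth arrest and stress gene, at 0.22 (SE 0.034) and by the MAP kinase phosphatase Dusp1 at 0.22 (SE 0.033), each with adjusted p = 0.00546. Fitted separately in the 4 groups by least squares, each of the 7 slopes was positive in all 4. Thus 6 of 25 rapid genes and 1 of 8 slower ones followed Fos, a difference between the classes that was not tested.

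The levels show the range behind these slopes. Npas4 was 51.6 and 61.0 CPM in the Sham Gfp libraries 1 and 5, where Fos was high, and 11.7 to 19.7 CPM in the other 4 libraries of the group. In SNI Mef2c, Npas4 was 42.7 and 51.5 CPM in libraries 2 and 5 and 11.6 to 16.9 CPM in the rest. In Sham Mef2c, Npas4 stayed between 16.7 and 26.7 CPM although Fos ran from 3.91 to 16.4 CPM, and the slope there was 0.29, against 1.13 in Sham Gfp, 0.86 in SNI Gfp and 0.72 in SNI Mef2c. Whether the slopes differ between groups was not tested. For Btg2 the 4 slopes lay between 0.41 and 0.54, and its level ran from 6.20 to 20.8 CPM over all libraries.

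Only 2 further genes were called on Fos, named here after their values were seen. Snord14e, a small nucleolar RNA lying inside Hspa8, whose reads its count may include, had a slope of 0.59 (adjusted p = 0.00452), and Tob1, a relative of Btg2, one of 0.095 (adjusted p = 0.0413). Junb, with a slope of 0.35, missed the threshold (adjusted p = 0.0576), as did Fosb at 0.31 (adjusted p = 0.771) and Egr1 at 0.32 (adjusted p = 0.979). The slopes of Maff (0.001), Jund (0.009), Klf4 (-0.077) and Homer1 (0.056) were near 0, with 95% intervals of -0.22 to 0.22, -0.031 to 0.049, -0.25 to 0.097 and -0.10 to 0.21. With Slc17a7 as a second covariate 6 of the 7 remained called, and Egr2 had an adjusted p of 0.0633. Btg2, Npas4, Arc, Gadd45g and Dusp1 were called in each of 24 fits that left out 1 library and in the fit without SNI Gfp 4 and 6, in which Egr2 (adjusted p = 0.0861) and Nr4a1 (adjusted p = 0.354) were not. Among the fits that left out 1 library, Egr2 was lost without Sham Gfp 5, SNI Gfp 1, SNI Gfp 4, SNI Mef2c 2 or SNI Mef2c 5 (adjusted p up to 0.152). Nr4a1 was lost in 12 of the 24 fits (adjusted p up to 0.218), those without Sham Gfp 1 or 5, Sham Mef2c 5 or 6, any SNI Gfp library, or SNI Mef2c 3 or 5. Nr4a2 had a steep but imprecise slope on Fos, 0.80 with a 95% interval of 0.18 to 1.42 (adjusted p = 0.9998). The cortical markers had a median slope on Fos of 0.61, with 0 of 11 called and 3 at an unadjusted p under 0.05.

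The promoter windows of 4 genes that moved together, Fos, Npas4, Btg2 and Nr4a1, are shown with that of Nr4a2, which was called on Slc17a7 and not on Fos. Each is 300 bases, from 250 before to 50 after the RefSeq start (GRCm38.p6, the sequence release behind mm10), written 5′ to 3′ on the gene's strand. Capitals mark TGACG or its reverse complement CGTCA, the core of the site that CREB and ATF proteins bind. The Fos window is chr12:85473640-85473939 (plus strand), Npas4 is chr19:4989922-4990221 (minus), Btg2 is chr1:134079106-134079405 (minus), Nr4a1 is chr15:101266596-101266895 (plus) and Nr4a2 is chr2:57123954-57124253 (minus).
Fos: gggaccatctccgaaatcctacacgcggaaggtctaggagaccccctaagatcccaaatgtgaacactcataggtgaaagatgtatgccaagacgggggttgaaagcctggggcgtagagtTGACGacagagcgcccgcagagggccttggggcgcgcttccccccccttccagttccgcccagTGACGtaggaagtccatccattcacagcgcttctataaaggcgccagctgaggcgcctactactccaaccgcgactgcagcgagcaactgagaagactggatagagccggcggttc
Npas4: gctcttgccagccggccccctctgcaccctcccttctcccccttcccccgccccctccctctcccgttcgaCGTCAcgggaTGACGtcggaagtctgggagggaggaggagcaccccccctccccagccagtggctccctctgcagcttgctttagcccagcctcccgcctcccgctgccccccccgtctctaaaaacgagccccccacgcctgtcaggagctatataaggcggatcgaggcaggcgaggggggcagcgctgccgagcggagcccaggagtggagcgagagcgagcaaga
Btg2: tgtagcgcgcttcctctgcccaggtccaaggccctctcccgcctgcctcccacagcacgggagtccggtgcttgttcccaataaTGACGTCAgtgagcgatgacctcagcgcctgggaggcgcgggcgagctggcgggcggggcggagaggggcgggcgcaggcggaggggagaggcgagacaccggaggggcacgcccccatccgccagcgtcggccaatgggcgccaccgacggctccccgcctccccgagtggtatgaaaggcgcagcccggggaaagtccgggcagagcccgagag
Nr4a1: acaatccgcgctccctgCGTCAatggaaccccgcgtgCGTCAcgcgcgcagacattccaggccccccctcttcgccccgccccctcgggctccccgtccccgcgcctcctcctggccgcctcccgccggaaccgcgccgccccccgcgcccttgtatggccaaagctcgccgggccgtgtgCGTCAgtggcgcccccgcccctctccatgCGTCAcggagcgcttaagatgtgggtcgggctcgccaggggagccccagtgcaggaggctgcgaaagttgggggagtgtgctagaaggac
Nr4a2: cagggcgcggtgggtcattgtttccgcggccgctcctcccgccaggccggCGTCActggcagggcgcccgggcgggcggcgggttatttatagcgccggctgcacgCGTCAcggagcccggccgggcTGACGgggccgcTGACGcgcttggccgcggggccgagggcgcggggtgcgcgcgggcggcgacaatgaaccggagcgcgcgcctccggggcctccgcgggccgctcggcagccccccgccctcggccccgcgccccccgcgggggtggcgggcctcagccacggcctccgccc
The core occurs 2 times in the windows of Fos and Npas4 and 4 times in those of Nr4a1 and Nr4a2. In Btg2 it forms the palindrome TGACGTCA, which holds the core on both strands. The match is a run of letters and does not show binding.

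Over the members, a window was found for 25 of 34, and 17 of these (68.0%) held TGACG on either strand in at least 1 window, against 23.05% of 27025 genes with a window of the same length. Among rapid genes 15 of 19 held it (78.95%) and among slower ones 2 of 6 (33.33%). Among Fos and the genes that followed it, 6 of 7 with a window did, the exception being Gadd45g. TGACGTCA occurred in Btg2, Dusp1 and Maff (12.0% against 2.03% of all genes), and it contains the shorter core. The CArG box, which SRF binds, occurred in Egr2 and Dusp5 (8.00% against 1.81%). These shares are descriptions over genes of known activity response, and no match says only that the letters are not in the window.

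A second and larger set of members varied with Slc17a7, the single marker used here for cortical content. The same kind of fit with the log2 CPM of Slc17a7 called 17 of 34 genes, 16 higher and 1 lower, where 17.9% of all genes were called (8.84% higher and 9.08% lower). An unadjusted p under 0.05 was found for 22 of 34, against 29.7% of all genes. By class, 11 of 26 rapid genes and 6 of 8 slower ones were called, a difference that was not tested. The median slope over the 34 genes was 0.087 per doubling of Slc17a7, against -0.001 over all genes tested. For comparison, the median slope of 12 striatal markers was 0.063, and none of them was called (4 with an unadjusted p under 0.05). Of the 10 other cortical markers, 7 were called higher, with slopes from 0.012 to 0.995 over the 10 and a median of 0.39.

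The smallest p belonged to Ier5, an early gene of the stress response, with a slope of 0.13 (SE 0.015, edgeR adjusted p = 6.58e-06). Nptx2, a secreted pentraxin that clusters AMPA receptors, had a slope of 0.15 (SE 0.019, adjusted p = 2.16e-05), and the Krüppel-like factor Klf10 one of 0.15 (SE 0.021, adjusted p = 4.27e-05). The steepest was Nr4a2, an orphan nuclear receptor also known as a marker of the claustrum and deep cortical layers, at 0.43 (SE 0.077, adjusted p = 0.000528). Nr4a2 reached 38.3 CPM in Sham Gfp 5, 37.9 CPM in SNI Gfp 4 and 43.4 CPM in SNI Mef2c 1, where Slc17a7 was 259.6, 564 and 1167 CPM. In the other 21 libraries Nr4a2 lay between 1.38 and 14.4 CPM, the highest of these being Sham Gfp 1, whose Slc17a7 level of 319.6 CPM was above that of Sham Gfp 5. Nptx2 was 57.5 CPM in SNI Mef2c 1 and 34.4 CPM in SNI Gfp 4, both the highest of their groups, and at most 29.8 CPM elsewhere.

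**Figure D2:**
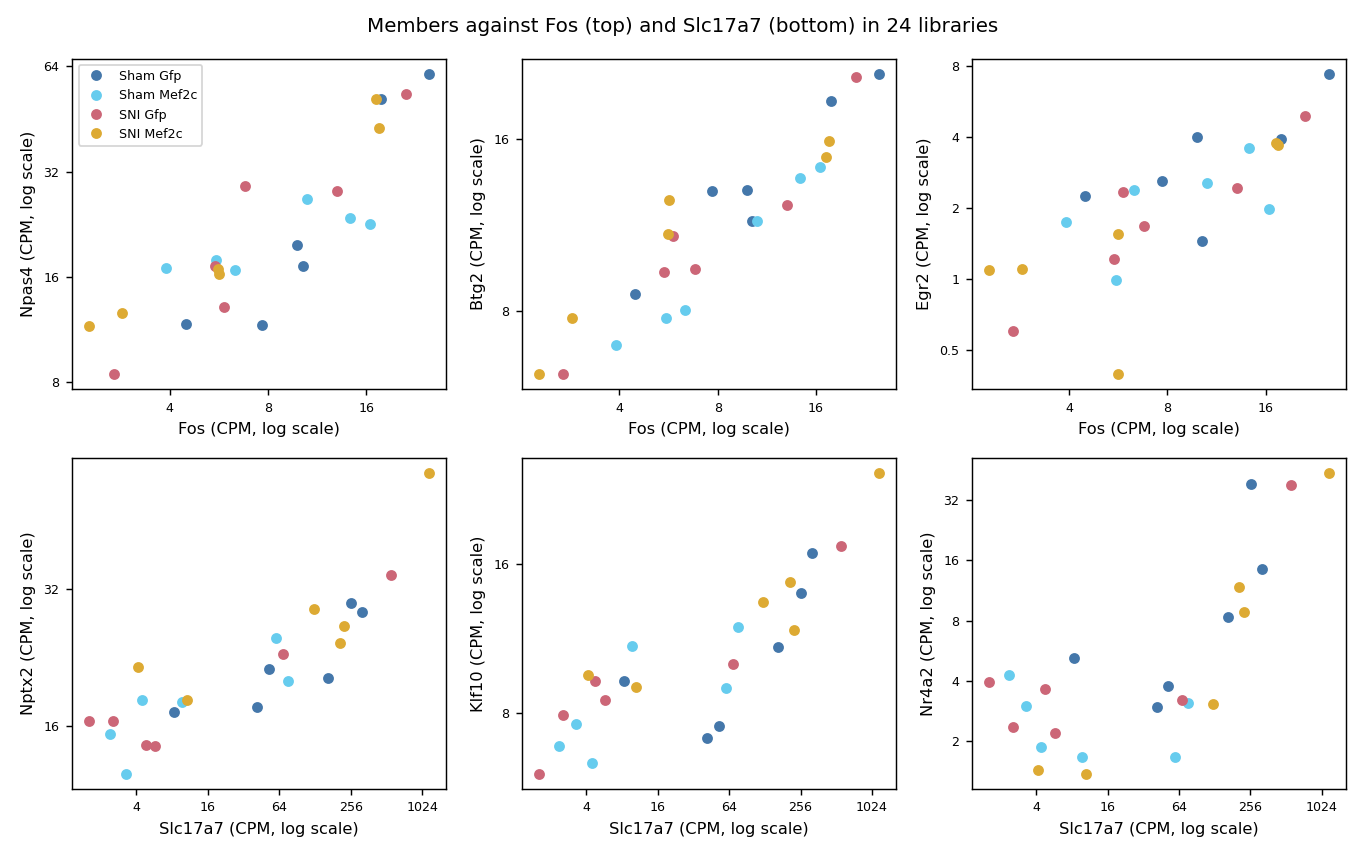
Levels in 24 libraries, both axes in CPM on a log scale, with libraries coloured by group. Npas4, Btg2 and Egr2 are plotted against Fos (top) and Nptx2, Klf10 and Nr4a2 against Slc17a7 (bottom); Npas4 and Btg2 have a positive slope along Fos in every group, and Nr4a2 is above 37 CPM in 3 of the 4 libraries with Slc17a7 at 259.6 CPM or more.

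Also called upwards were Nr4a3, Nr4a1, Egr1, Egr4, Fosb and Fosl2 among the transcription factors, with slopes from 0.096 to 0.16. Dusp6, a phosphatase of ERK, had a slope of 0.10 (adjusted p = 0.00034), the scaffold gene Homer1 0.089, Gadd45b 0.085, Jun 0.072 and Dusp1 0.055, and Arc 0.15 (adjusted p = 0.0427). For Homer1 the row sums the long forms and the short inducible one, which cannot be told apart in a count per gene. Dusp4 alone fell, with a slope of -0.11 (SE 0.029, adjusted p = 0.0126), negative within each group. Its lowest level was 5.37 CPM, in SNI Mef2c 1, and its highest 15.3 CPM, in Sham Gfp 3. Egr1, Nr4a1, Nr4a3, Ier5, Klf10, Gadd45b, Fosl2, Nptx2 and Dusp6 had a positive slope in each of the 4 groups. The others called upwards did in 3. In Sham Mef2c, where Slc17a7 did not exceed 75.6 CPM, the slope was -0.088 for Nr4a2 and -0.026 for Jun. In SNI Mef2c it was -0.052 for Fosb, -0.03 for Arc, -0.018 for Homer1 and -0.005 for Egr4, and Dusp1 had no positive slope there. Fosb, Arc and Dusp1 were the least secure, lost in 16, 16 and 10 of the 24 fits that left out 1 library, with adjusted p up to 0.206, 0.234 and 0.211. All of these were lost without Sham Gfp 1, 2 or 5, Sham Mef2c 5 or 6, SNI Gfp 1, 2 or 4, or SNI Mef2c 5. Dusp1 was also lost without SNI Mef2c 3. Both Fosb and Arc were further lost without Sham Gfp 6, Sham Mef2c 1 or 4, or SNI Gfp 3 or 6, Fosb without Sham Mef2c 2 or 3, and Arc without Sham Gfp 3 or SNI Mef2c 3, while Jun was lost without SNI Gfp 4 (adjusted p = 0.0934).

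The sets overlapped in Arc, Dusp1 and Nr4a1, which make up 42.9% of the genes called on Fos and 17.6% of those called on Slc17a7. Fos was not called on Slc17a7 (slope 0.098, SE 0.075, adjusted p = 0.426), nor did Npas4 (0.14, adjusted p = 0.15) or Btg2 (0.067, adjusted p = 0.232) pass the threshold. With Fos as a second covariate, 16 of the 17 genes were still called on Slc17a7, and Fosb had an adjusted p of 0.119. A group of 12 genes was called on neither: Atf3, Dusp5, Egr3, Ier2, Junb, Jund, Klf2, Klf4, Klf6, Maff, Sik1 and Trib1.

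**Figure D3:**
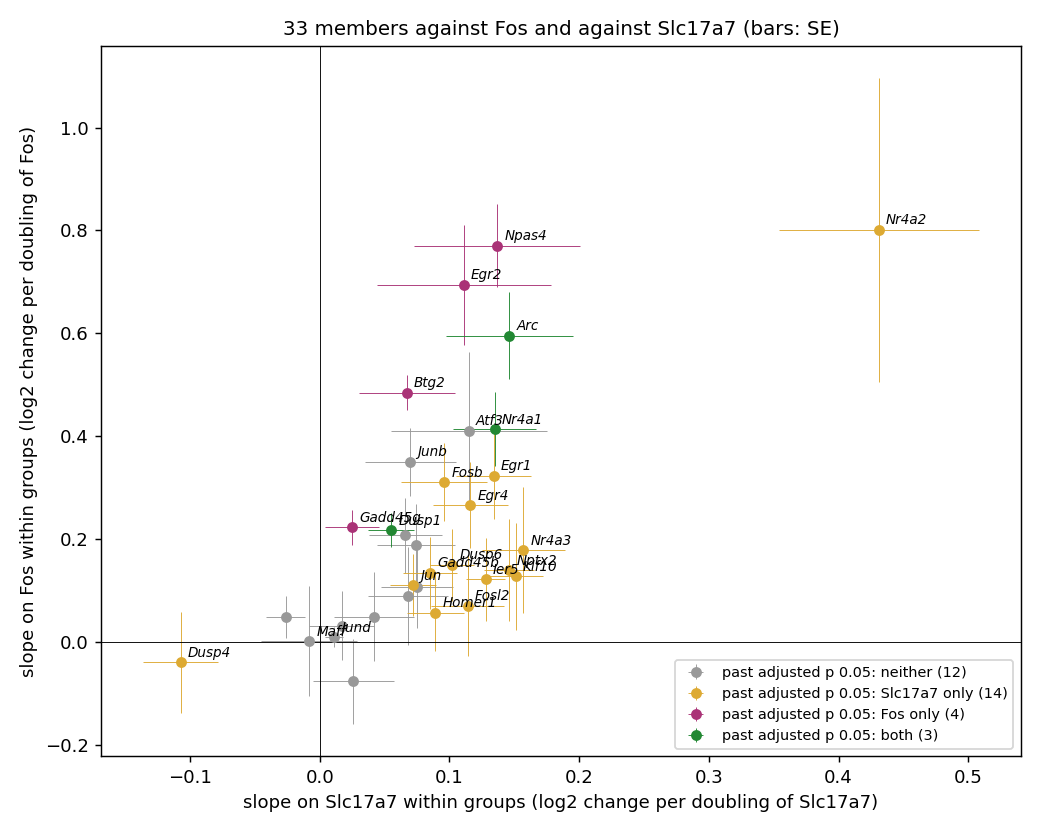
Slope on Slc17a7 (horizontal) and on Fos (vertical) for the 33 members other than Fos, each as log2 change per doubling with its SE, coloured by which slope was past an adjusted p of 0.05. Npas4, Egr2 and Btg2 lie high on the Fos axis, Nr4a2 lies far along the Slc17a7 axis at 0.43, and Dusp4 is on its negative side.

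The same slopes were read for other genes of the activity response. On Slc17a7, 6 of 30 other activity-induced genes rose and 1 fell, where 8.84% and 9.08% of all genes did. Ccn2 had a slope of 0.33, the neurotrophin gene Bdnf 0.30, Arl4d 0.15 and Inhba 0.12, Plk2 0.086 and Spry2 0.085, while Myc fell at -0.048. Of 31 upstream regulators 11 rose, against the same 8.84%, with Camkk2 at 0.12, the kinase gene Camk2a at 0.095 and the other 9 at 0.055 or below. On Fos, 0 of the 30 and 0 of the 31 were called by edgeR, with 2 and 0 at an unadjusted p under 0.05 against 1.87% of all genes.

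Nerve injury was compared with sham surgery to ask whether the activity genes of the accumbens differ under lasting injury. The comparisons of surgery and of vector share groups of libraries, so their values are not independent. In the Gfp groups none of the 34 genes passed, as 0% of all genes did, and 3 of 34 had an unadjusted p under 0.05 against 12.3% of all genes. DESeq2 also called 0 of the 34, and limma-voom with quality weights called Jun, Atf3, Maff and Dusp6 lower, with 553 and 2794 of all genes. Estimates were negative for 28 genes, with a median log2 fold change of -0.22 (0.01 over all genes). For Fos it was -0.44 (95% interval -1.57 to 0.68), for Arc -0.23 (-1.06 to 0.60) and for Npas4 -0.21 (-1.19 to 0.77). For Egr3 (0.009, -0.44 to 0.46), Dusp1 (0.010, -0.30 to 0.32) and Homer1 (-0.014, -0.42 to 0.40) the intervals were narrower.

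The smallest unadjusted p in this comparison belonged to Maff (log2 fold change -0.78, adjusted p = 0.136) and Atf3 (-1.26, adjusted p = 0.187). SNI Gfp libraries 4 and 6 had Atf3 at 3.51 and 2.97 CPM, whereas the other 4 had 0.497 to 0.882 CPM. Those libraries also carried interferon response transcripts at a mean of 3.95 and 4.84 log2 CPM, against 1.18 to 2.75 in the other 4. Without them Atf3 (-2.42, adjusted p = 0.000228), Maff (-1.12, adjusted p = 0.00373), Jun (-0.55, adjusted p = 0.0176) and Dusp6 (-0.65, adjusted p = 0.0346) were called lower, with 1870 of all genes called. Library 4 had the highest Atf3, Jun (42.9 CPM) and Dusp6 (31.1 CPM) of its group, besides the highest Slc17a7 (564 CPM), and library 6 had the highest Maff (3.03 CPM). All 4 values are therefore partly set by the choice of libraries left out. Leaving out SNI Gfp 6 alone called Maff (-1.02, adjusted p = 0.00699) and Jund (0.15, adjusted p = 0.0497), with 1392 of all genes, and leaving out Sham Gfp 3 called Maff (-0.91, adjusted p = 0.0321), with 880.

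In the Mef2c groups SNI again gave 0 of 34 calls (0% of all genes; DESeq2 and limma-voom 0), with 6 genes at an unadjusted p under 0.05 against 16.1%. Here 25 estimates were positive, with a median of 0.20 (-0.002 over all genes). The 6 were Ier5 (0.64), Gadd45b (0.56), Nptx2 (0.69), Klf10 (0.65), Nr4a2 (2.16) and Dusp4 (-0.69), each with an adjusted p of 0.223 or more. All 6 are among the genes that followed Slc17a7, whose level was 25.9 ± 32.9 CPM in Sham Mef2c (SD, n = 6, median 7.10) and 289.9 ± 440 CPM in SNI Mef2c (n = 6, median 166.0). Without SNI Mef2c 1, at 1167 CPM, that group's mean was 114.5 ± 105 CPM (n = 5). The median difference of the 11 cortical markers was 1.74 in the same comparison, with 0 called. With Slc17a7 as a covariate the estimates were 0.25 for Ier5, 0.33 for Gadd45b, 0.22 for Nptx2, 0.16 for Klf10, -0.13 for Nr4a2 and -0.36 for Dusp4. The slopes on Slc17a7 were fitted on these same libraries, and the part of cortical content in the 6 differences was not tested. Averaged over vectors, 0 of 34 were called (0% of genes), with 2 at an unadjusted p under 0.05 against 12.9%.

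The interaction of surgery and vector asks whether injury acts differently with the Mef2c vector. It was called for 0 of 34 (0% of genes; DESeq2 0 members, limma-voom 8 with 4120 of all genes), with 8 genes at an unadjusted p under 0.05 against 14.9%. Estimates were positive for 29 genes, with a median of 0.44 (0.003 over all genes); the Sham Mef2c and SNI Gfp groups enter it with one sign and the other groups with the opposite one. The largest were Nr4a2 (2.61, 95% interval 0.08 to 5.14), Atf3 (1.52, 0.15 to 2.89) and Nptx2 (0.87, 0.11 to 1.63). With Slc17a7 as a covariate these estimates were -0.34 for Nr4a2, 1.025 for Atf3 and 0.055 for Nptx2. The median interaction of the 11 cortical markers was 1.84, with 0 called, and the part of cortical content in the estimates was not tested. Without SNI Gfp 4 and 6, 6 were called, with 1494 of all genes: Atf3 (2.68), Nr4a2 (4.20), Ier5 (1.11), Gadd45b (1.08), Dusp6 (0.98) and Jun (0.82). Library 4 had the highest level of its group for each of these 6 genes, so these values too are partly set by that choice.

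**Figure D4:**
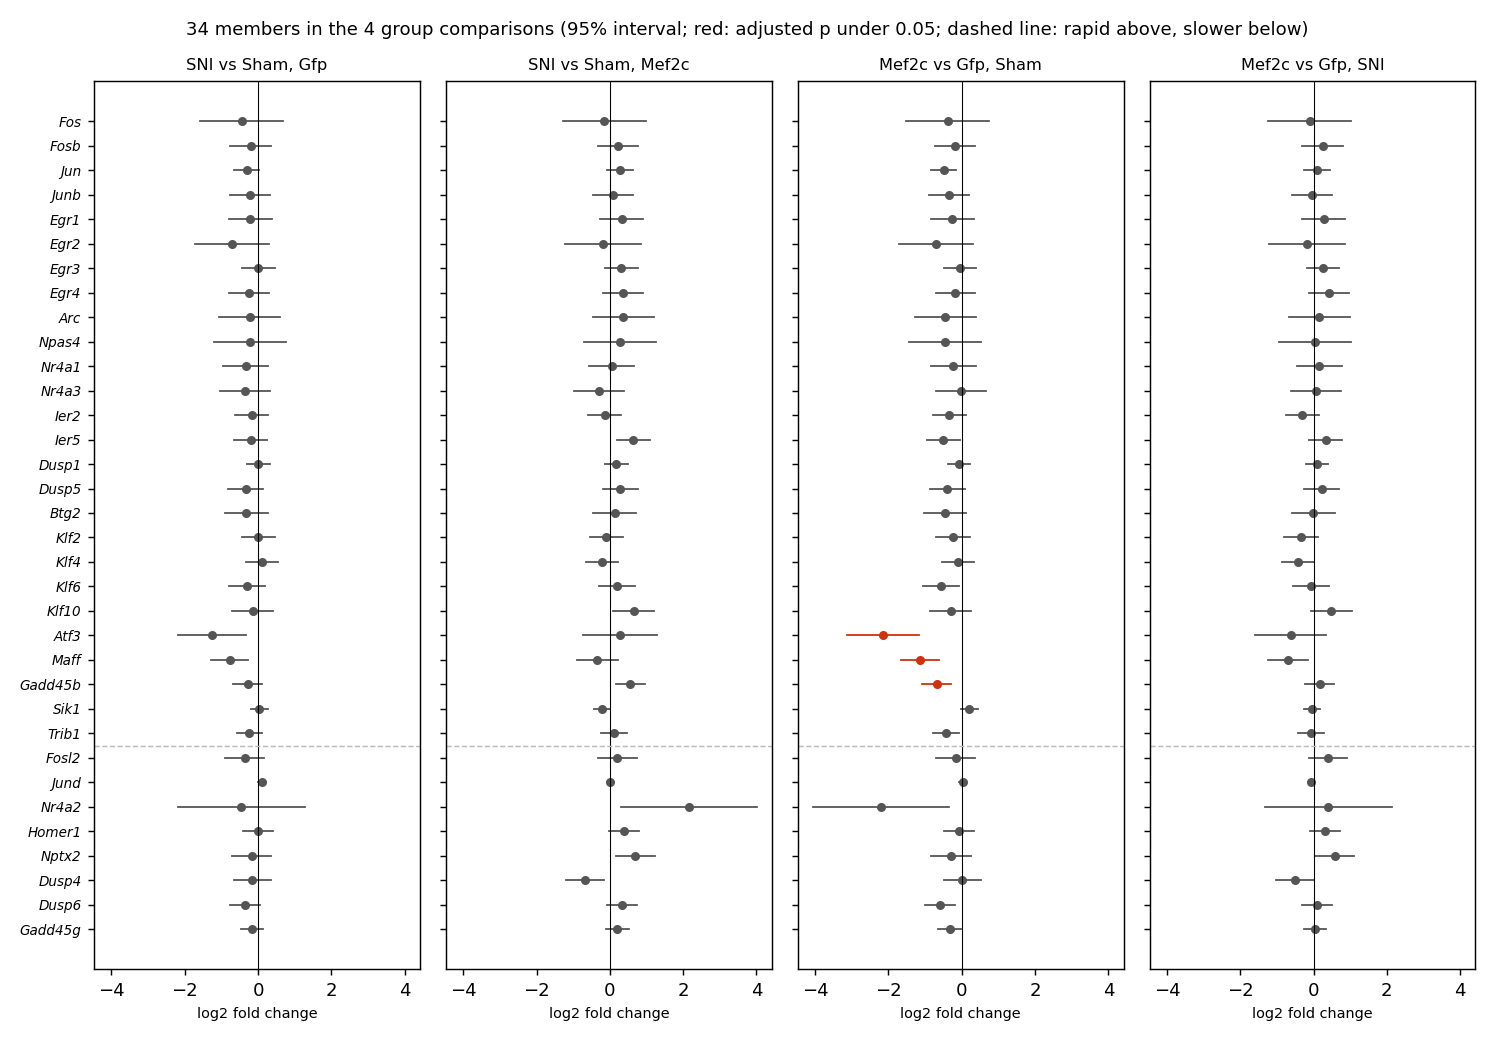
Log2 fold change (horizontal axis) of the 34 members in the 4 comparisons of groups, with 95% intervals; red marks an adjusted p under 0.05. Only Atf3, Maff and Gadd45b are red, in the comparison of the libraries labelled Sham Mef2c with Sham Gfp.

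Of the 4 comparisons between pairs of groups, the vector in sham mice alone gave calls among the members in the fit of all libraries. Relative to Sham Gfp, the libraries labelled Sham Mef2c had less Atf3, Maff and Gadd45b RNA. These were 3 of 34 genes, where 7.93% of all genes were called lower, 1.48% higher and 9.41% in either direction, so the share among the members was near that of all genes. Atf3 lay between 1.33 and 6.44 CPM in Sham Gfp (median 3.96) and between 0.412 and 1.22 CPM in Sham Mef2c (median 0.897). All its Sham Mef2c libraries lay below all Sham Gfp libraries, as was so for 5.43% of all genes. Its log2 fold change was -2.15 (SE 0.47, edgeR adjusted p = 0.00298). Maff lay between 1.43 and 4.15 CPM (median 2.82) in Sham Gfp and between 0.995 and 1.68 CPM (median 1.23) in Sham Mef2c, with 4 of 6 libraries below all Sham Gfp libraries. Its log2 fold change was -1.14 (SE 0.25, adjusted p = 0.00326). Gadd45b, a stress gene linked to DNA demethylation in neurons, lay between 7.43 and 14.5 CPM (median 11.2) and between 5.55 and 9.37 CPM (median 6.53). Its estimate was -0.68 on the log2 scale (SE 0.19, adjusted p = 0.0229). Atf3 is at chr1:191170296-191218039, Maff at chr15:79346621-79359076 and Gadd45b at chr10:80930073-80932204 (mm10).

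Of the other genes Dusp6 (-0.61, adjusted p = 0.0548) and Jun (-0.49, adjusted p = 0.0657) lay closest to the threshold, and 31 of 34 estimates were negative with a median of -0.33 (0.02 over all genes). An unadjusted p under 0.05 was found for 10 of 34, against 21.2% of all genes. Fos (-0.39, 95% interval -1.51 to 0.74), Npas4 (-0.46, -1.45 to 0.52) and Arc (-0.44, -1.28 to 0.39) did not pass. Without the Sham Mef2c libraries 2 and 5, whose Mef2c level was low, Atf3 (-1.81, adjusted p = 0.0369) and Maff (-1.15, adjusted p = 0.0186) were still called, and Gadd45b (-0.59, adjusted p = 0.135) was not. Gadd45b was also lost without Sham Gfp 1 or 5 or Sham Mef2c 2, 4 or 5 taken singly (adjusted p up to 0.0709), and with Slc17a7 as a covariate (-0.45, adjusted p = 0.0874). With the mean of the cortical markers as the covariate instead, Gadd45b was called (-0.52, edgeR adjusted p = 0.04765). Atf3 (-1.84, adjusted p = 0.012) and Maff (-1.16, adjusted p = 0.00826) stayed called with Slc17a7 as a covariate.

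In the SNI mice the vector gave 0 calls among the 34 (DESeq2 and limma-voom 0), where 0.00421% of all genes passed, which was Mef2c alone. An unadjusted p under 0.05 was found for 2, Maff (-0.70, adjusted p = 0.24) and Nptx2 (0.58, adjusted p = 0.318), against 14.3% of all genes. Averaged over surgeries, Atf3 (-1.39, SE 0.33, adjusted p = 0.00632) and Maff (-0.92, SE 0.18, adjusted p = 0.001) were lower, 2 of 34 against 7.87% of all genes called lower, 1.28% higher and 9.15% in either direction. An unadjusted p under 0.05 was found for 4 of 34, against 19.6% of all genes. Without SNI Gfp 4 and 6, Atf3 was not called (-0.81, adjusted p = 0.0885) and Maff was (-0.75, adjusted p = 0.00485).

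Immune and astrocyte transcripts moved with these calls. The mean log2 CPM of 10 interferon response genes was 4.91 in Sham Gfp (3.61 to 5.56), 1.29 in Sham Mef2c (1.11 to 1.59), 2.69 in SNI Gfp (1.18 to 4.84) and 1.39 in SNI Mef2c (1.12 to 1.82). Between Sham Mef2c and Sham Gfp 10 of the 10 were called lower, as were 5 of 6 T cell markers and 6 of 8 microglial markers. Of all genes 7.93% were called lower there, and the lists were chosen with earlier results of these data known. The summed level of the T cell markers was 18.7 to 58.8 CPM in Sham Gfp, 8.77 to 28.2 in Sham Mef2c, 14.8 to 54.7 in SNI Gfp and 25.3 to 35.6 in SNI Mef2c, but Cd4, which was not called, made up most of that sum (8.67 to 28.0 CPM in Sham Mef2c). Cd8a had 956 counts in Sham Gfp and 354 in SNI Gfp, and Cd8a and Gzmb had 0 counts in all Sham Mef2c libraries. Astrocyte markers were called lower for 3 of 6, with a median difference of -0.21 over the list. Gfap, the filament protein that reactive astrocytes raise, was 369 ± 168 CPM in Sham Gfp and 100.7 ± 25.2 CPM in Sham Mef2c (SD, n = 6). The water channel gene Aqp4 stood at 124 ± 23.03 against 79.04 ± 13.5 CPM, and Aldh1l1 at 58.8 ± 9.47 against 43.5 ± 3.06 CPM. The summed level of the 6 was 2751 to 3527 CPM in Sham Gfp and 2664 to 3302 CPM in Sham Mef2c, and the part of astrocytes in the calls was not tested. Of 8 endothelial markers 1 was called lower. None of 11 cortical (median -1.07), 12 striatal, 6 smooth muscle and 6 oligodendrocyte markers was called by edgeR, nor had any an unadjusted p under 0.05. SNI Gfp libraries 4 and 6 had interferon means of 3.95 and 4.84, with Atf3 at 3.51 and 2.97 CPM and Maff at 1.79 and 3.03 CPM. In the 12 Mef2c libraries, all with interferon means of 1.82 or less, Atf3 was at most 1.78 CPM and Maff at most 1.68 CPM. With the interferon mean as a covariate the Sham estimates were 0.82 for Atf3, 0.46 for Maff and 0.17 for Gadd45b, each with an adjusted p of 0.9999 and 0 of all genes called by edgeR; this covariate was chosen after seeing the data. The interferon means of these groups do not overlap, so the vector and the immune transcripts cannot be told apart here.

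**Figure D5:**
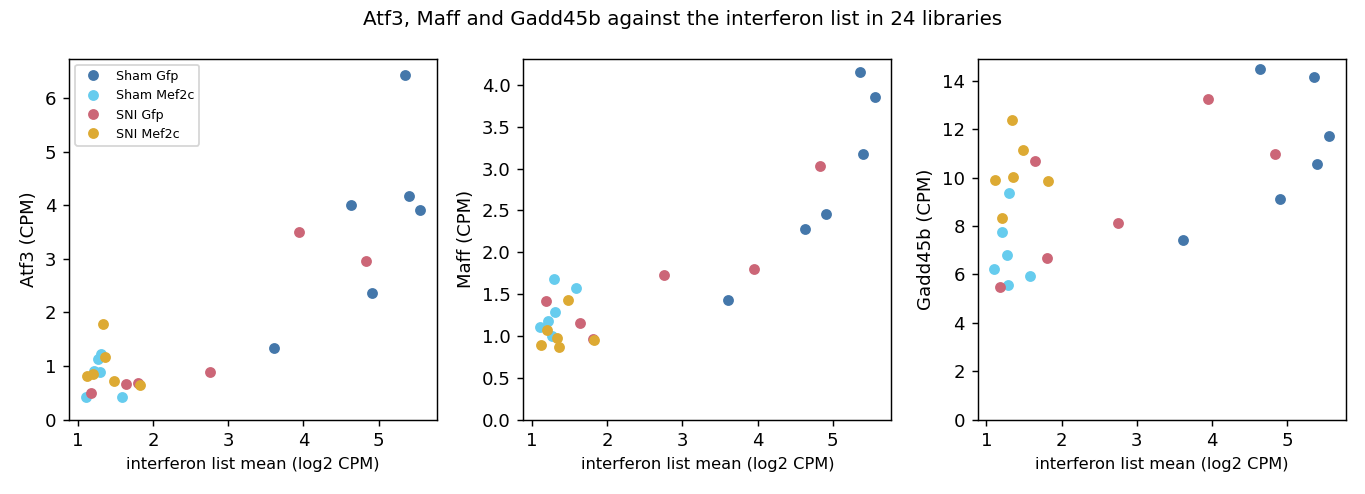
CPM of Atf3, Maff and Gadd45b (vertical axes) against the mean log2 CPM of 10 interferon response genes (horizontal axis) in 24 libraries, coloured by group. All 6 Sham Gfp libraries have an interferon mean of 3.61 or more and all Sham Mef2c libraries 1.59 or less, and the highest Atf3 levels are in libraries with a high interferon mean.

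Other activity-induced genes outside the 34 showed calls in the same sham comparison. Of 30, 7 were lower, where 7.93% of all genes were, among them the kinase gene Pim1 (-1.35), the mRNA decay factor Zfp36 (-1.33), Ccn1 (-0.86), Cdkn1a (-0.71) and Mcl1 (-0.39), and the neuropeptide precursor gene Vgf was higher (0.24). Of 31 upstream regulators, a list that includes Mef2c, Atf2 alone was called (0.13). Neither list had a call in a comparison of SNI with sham by edgeR, with 4 and 2 genes at an unadjusted p under 0.05 in the Gfp groups, against 12.3% of all genes, and 8 and 10 in the Mef2c groups, against 16.1%.

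The remaining members had no call on either slope or between groups in the fit of all libraries. Among the KLF factors, Klf2 lay between 2.43 and 7.26 CPM, Klf4 between 2.82 and 9.43 CPM and Klf6 between 17.04 and 59.3 CPM over the 24 libraries. The highest Klf2 and Klf4 were both in SNI Gfp 3, whose smooth muscle marker mean, 4.93 log2 CPM, was also the highest. Its endothelial marker mean, 4.997 log2 CPM, was below only that of SNI Mef2c 1, at 5.02. The part of these cells in the levels was not tested. Klf6 was highest in SNI Mef2c 1, which also had the lowest striatal marker mean (6.98). Junb (23.8 to 91.9 CPM), Jund (90.7 to 118.0 CPM), Egr3 (52.5 to 119.5 CPM), Ier2 (1.16 to 3.94 CPM), Dusp5 (3.24 to 9.07 CPM), Sik1 (11.99 to 23.02 CPM) and Trib1, a pseudokinase (6.53 to 15.01 CPM) completed this set.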

How the data were processed

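Deposited counts per gene were made with featureCounts on mm10, per the submitters' processing notes. An aligner and version numbers are not given in the sources used. Deposited FPKM values equal the count over library total and full gene span for 42625 of 42625 genes compared. The length used was thus the full span, and counting may have covered introns, which was not checked on reads. Strand use in counting is not stated. The counts were tested with edgeR 4.0.16 (R 4.3.3): TMM, filterByExpr and quasi-likelihood fits of all 24 libraries (20 residual degrees of freedom, 19 for slopes), with Benjamini-Hochberg adjustment over 23738 genes. Slopes used log2 CPM (prior count 2) of Slc17a7 or Fos plus group terms. Slc17a7 and Fos, the latter itself a member, stayed in the fit and adjustment on their own slopes. Each was left out of the counts of genes called there. Libraries held 25477019 to 36570108 counts. Fits were tested on simulated data. Alternatives used limma 3.58.1, DESeq2 1.42.0, FPKM with 1 or 0.1 added, other filters and scalings, covariates and left-out libraries. The 34 members and all lists were chosen with earlier results of these data known. All members are described; genes outside them are named from those lists or where a result turns on them. Replicate numbers did not pair libraries across groups. The closest 2 of 60 within-group pairs differed by a chi-square per degree of freedom of 3.22, so no library was taken as a repeat.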

Additional observations from a re-analysis of the deposited data

Results flagged for a closer look

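Among 136 groups of 6 libraries (34 genes in 4 groups), 7 (5.15%) had a library whose gap to its nearest neighbour on the log2 CPM scale exceeded Dixon's 95% limit relative to the group's range, and chance alone gives about 1 in 20. SNI Mef2c library 1 accounted for 4 of the 7. In it Egr3 was the lowest of its group at 67.1 CPM (next 99.7), Sik1 the lowest at 11.99 CPM (next 17.6), Klf4 the highest at 4.94 CPM (next 3.73) and Klf6 the highest at 59.3 CPM (next 23.8). The same library had the highest Slc17a7 level, 1167 CPM, and the lowest striatal marker mean, 6.98 log2 CPM. Nr4a2 was 37.9 CPM in SNI Gfp library 4, where the next library had 3.94 CPM and where Slc17a7 was the highest of the group at 564 CPM. Nr4a1 was 82.7 CPM in Sham Mef2c library 6 against 43.7 CPM in the next. Jund was 91.5 CPM in Sham Mef2c library 3 against 97.99 CPM in the next. The scale matters to this count. On CPM, 14 libraries passed the limit and 5 of the 7 were among them, without Egr3 and Jund. The 9 that passed on CPM alone were all the highest of their groups: Jun, Nr4a3 and Klf10 in SNI Gfp 4, Klf4 in SNI Gfp 3, Nr4a2 in Sham Gfp 5, and Klf10, Maff, Nr4a2 and Nptx2 in SNI Mef2c 1.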

How the results depend on the processing

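Counts below are of the 34 members (33 for the Fos slope), and the cause of each shift was not tested. For the vector in sham mice, 3 members (2233 of all genes) became 5 with library size alone (2201), with DESeq2 (2594), with limma-trend on FPKM plus 0.1 (2164) and without SNI Gfp libraries 4 and 6 (2414), 7 with only the 2 groups compared (2038), 8 with limma-voom (4437) and 0 with the interferon covariate (0 of all genes). Limma-voom called 4 members for SNI in Gfp mice (2794 of all genes against 0), 8 for the interaction (4120 against 0) and 1 for SNI over both vectors (933 against 0). Without SNI Gfp libraries 4 and 6, these were 4, 6 and 2 members (1870, 1494 and 1192 of all genes), and the vector over both surgeries gave 1 instead of 2 (1444 of all genes against 2173). DESeq2 called 438 of all genes for the vector in SNI mice and 13 for SNI in Mef2c mice, with 0 members in each. With the interferon covariate the vector over both surgeries gave 0 members, and signs turned: Atf3 0.82, Maff 0.46 and Gadd45b 0.17 in sham mice, Atf3 0.82 and Maff 0.20 over both surgeries. Leaving out 1 library gave 2 to 6 members for the vector in sham mice (2 without Sham Gfp 1 or 5 or Sham Mef2c 2, 4 or 5, and 6 without Sham Gfp 3 or SNI Mef2c 1, with 3602 and 2672 of all genes), 2 to 3 for the vector over both surgeries, 0 to 2 for SNI in Gfp mice (2 without SNI Gfp 6), 0 to 1 for SNI over both vectors, 13 to 20 for Slc17a7, 5 to 8 for Fos, and 0 for the others. Without SNI Gfp 4 and 6 the slopes gave 13 (Slc17a7, without Fosb, Jun, Arc and Dusp1; 3392 of all genes against 4254) and 5 (Fos, without Egr2 and Nr4a1). With a replicate block the Fos slope gave 3 members (Btg2, Npas4 and Gadd45g; 4 of all genes against 9), Fosb lost its call on Slc17a7 (adjusted p = 0.0686) and Gadd45b its call in sham mice (-0.67, adjusted p = 0.0717, edgeR), and no other called member was lost. The replicate numbers share only a number: 9 of 36 same-number pairs correlated above 0.1 (r from -0.43 to 0.28), and 1 library correlated best with its own number. The interferon and Fos covariates and the fit without SNI Gfp 4 and 6 were chosen after seeing the data.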
